A study of Mus musculus with 7 samples.

Results

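The Pafah1b genes encode the subunits of intracellular platelet-activating factor acetylhydrolase, and 4 genes are described here of the 24421 in the count files: Pafah1b1, Pafah1b2, Pafah1b3 and the related Pafah2. They were taken by gene symbol, as a family that includes the next gene to Cic, Pafah1b3, and they were chosen by these names with their CPM values and fold changes between Cic knockout and control cerebellum already known. Those values are therefore a description, and no p-value is given for them. All 4 passed the filter on low counts that left 16905 genes for testing.

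Platelet-activating factor is an ether phospholipid that carries an acetyl group and acts as a signal, and acetylhydrolases inactivate it by removing that group. In brain the type I enzyme is a pair of catalytic subunits, α2 from Pafah1b2 and α1 from Pafah1b3, which bind a dimer of LIS1, the WD-repeat protein made by Pafah1b1. LIS1 also regulates the microtubule motor dynein, and loss of a copy of its gene in humans causes lissencephaly, a defect of neuronal migration. Pafah2 encodes a separate single-chain enzyme that hydrolyses oxidised phospholipids. The α1 subunit is known for its expression in developing brain, where the α1 and α2 chains form mixed dimers.

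RNA was sequenced from cerebellum of C57BL/6 mice, with 4 libraries titled CicKO and 3 titled Wildtype. CicKO mice carried En1-Cre with both Cic alleles floxed (En1-Cre; Cicflox/flox). The mice titled Wildtype carried 1 floxed and 1 intact allele (Cicflox/+) with no Cre named. The groups thus differ in Cre, in the number of floxed alleles and in loss of Cic, and their effects cannot be told apart. An effect of the altered allele itself on Pafah1b3, the gene next to it, was not tested. En1 is active early in the part of the neural tube that gives rise to the cerebellum, and cells not descended from it keep Cic. The labels give no age or sex and do not say that each library is a separate animal, in which case the spread between libraries could be technical. In such bulk tissue, fewer cells of a type and less RNA per cell cannot be told apart.

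Libraries held 102653765 to 121285349 gene counts, and levels are given as CPM, each gene's counts scaled to a common library size by TMM factors. All 12 listed markers of cerebellar neurons and Bergmann glia were above 1 CPM in every library, with sums of 8420 to 11000 CPM in CicKO and 9560 to 10400 CPM in Wildtype. Of the 12, 2 did not overlap between the groups, which is near the share of all genes tested without overlap (15.4%). Both are genes of Bergmann glia. Gdf10 was at 151 to 163 CPM in CicKO and 215 to 242 CPM in Wildtype, and Slc1a3 at 1160 to 1440 and 1540 to 1580 CPM. Choroid plexus markers (10 genes) stood apart in CicKO 3 and Wildtype 3, at 8610 and 6220 CPM in sum against 48.8 to 147 CPM in the other 5 libraries. Sums of 3 further lists did not overlap between the groups. The 8 forebrain markers were at 9.14 to 10.6 CPM in CicKO and 12.7 to 14.4 CPM in Wildtype. Most of that sum was Neurod6, at 6.27 to 7.02 and 10.1 to 11.7 CPM, while Tbr1 (1.34 to 1.99 and 0.663 to 1.15 CPM), Drd1 (0.443 to 0.627 and 0.237 to 0.310 CPM) and Lhx2 (0.106 to 0.158 and 0.0653 to 0.0934 CPM) were higher in CicKO without overlap. The 8 serotonin and brainstem markers were at 15.1 to 19.1 and 10.5 to 14.4 CPM, where Tph2 alone did not overlap (1.92 to 5.07 and 0.653 to 1.03 CPM). The 6 blood markers were at 2.95 to 4.93 and 5.06 to 5.90 CPM, where Slc4a1 alone did not overlap (0.48 to 0.827 and 1.94 to 2.1 CPM). Of the 6, 4 were globin genes at 0 in every library, and the reason for these zeros was not tested. Microglial markers (6 genes) summed to 89.1 to 127 CPM in CicKO and 108 to 114 CPM in Wildtype, oligodendrocyte markers (6 genes) to 3630 to 5750 and 4830 to 6100 CPM, and those of meninges and vessels (8 genes) to 92.9 to 130 and 91.1 to 160 CPM. The part of these lists in the values below was not tested beyond leaving out both libraries numbered 3. Reads assigned to no gene made up 18.2% to 19.0% in CicKO and 16.0% to 18.6% in Wildtype. This share thus ran partly with genotype, and a fit that takes it as a covariate cannot fully separate it from genotype.

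Cic, the deleted gene, was lower in every CicKO library. Its level was 147, 146, 144 and 147 CPM in CicKO 1 to 4 and 216, 257 and 223 CPM in Wildtype 1 to 3. The log2 fold change was -0.66 (SE 0.0622, edgeR adjusted p = 0.00256), over the whole gene, so that undeleted exons and cells in which Cre was never active also contribute. Cic lies on the forward strand of chromosome 7 at 25267704 to 25294159 (GRCm38), and Pafah1b3 on the reverse strand at 25295049 to 25297986, so the genes point towards each other with 889 bases between their annotated 3′ ends. No other gene of the GENCODE M21 annotation overlaps Cic or any of the 4 Pafah genes (0 exon bases shared for each), which bears on these counts because the library kit works from double-stranded cDNA and the strand setting of the counting is not given in the sources used here.

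The other members lie on other chromosomes. Pafah1b1 is at 74673949 to 74724670 on chromosome 11, Pafah1b2 at 45962859 to 46012690 on chromosome 9, both on the reverse strand, and Pafah2 at 134396320 to 134427413 on the forward strand of chromosome 4. The α1 and α2 chains are related, so the ungapped 90-base stretch with the most identical bases in an alignment of their coding sequences is shown, to let their separability be judged. It spans coding bases 130 to 219 of both, counted from the first base of the start codon, and 73 of its 90 bases are identical. Capitals mark the 17 bases that differ (GENCODE M21 transcripts, 5′ to 3′):
Pafah1b2: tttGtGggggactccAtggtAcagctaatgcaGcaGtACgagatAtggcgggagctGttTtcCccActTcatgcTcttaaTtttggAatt
Pafah1b3: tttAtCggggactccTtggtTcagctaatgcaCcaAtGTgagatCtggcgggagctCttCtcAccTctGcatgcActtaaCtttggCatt
The longest run of bases that these coding sequences share anywhere is 11. Of all 50-base words in the annotated transcripts, 0 of 8487 from Pafah1b2, 0 of 2196 from Pafah1b3 and 0 of 3748 from Pafah2 occur in a transcript of another gene on either strand. Of the 9662 words from Pafah1b1, 92 (0.952%) do, in its pseudogenes Pafah1b1-ps1 and Pafah1b1-ps2. The counts of Pafah1b2 and Pafah1b3 therefore rest on sequences that differ.

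Pafah1b3, the α1 catalytic subunit, was about double in level in the CicKO libraries. Its level was 27.9, 30.1, 29.7 and 32.3 CPM in CicKO 1 to 4 and 14.6, 13.6 and 17.0 CPM in Wildtype 1 to 3. Every CicKO library lay well above every Wildtype library, and the lowest CicKO value exceeded the highest Wildtype value by more than the range within either group. Means were 30.0 ± 1.83 CPM (SD, n = 4) and 15.1 ± 1.71 CPM (SD, n = 3), a 1.99-fold difference (log2 fold change 0.99, SE 0.0868). Of all genes tested, 2.06% had a log2 fold change of at least its size in either direction. Without CicKO 3 and Wildtype 3, the remaining libraries were at 27.9 to 32.3 and 13.6 to 14.6 CPM, so the difference was as large without the libraries high in choroid plexus transcripts (log2 fold change 1.09, SE 0.0861).

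**Figure D1:**
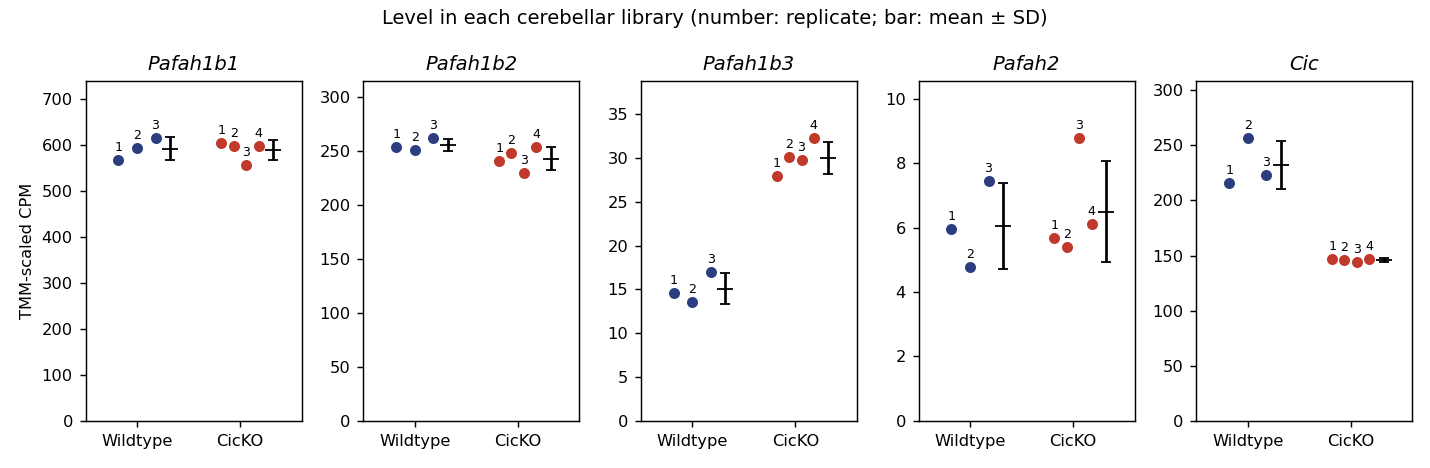
Level of each gene in every library, as TMM-scaled CPM on axes that start at 0. Points are libraries with their replicate number, blue for Wildtype and red for CicKO, and bars give the mean ± SD (n = 3 and 4). Pafah1b3 separates the groups, at 27.9 to 32.3 against 13.6 to 17.0 CPM, as Cic does in the other direction, while Pafah1b1, Pafah1b2 and Pafah2 overlap.

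Among the 4 members, only Pafah1b3 had groups that did not overlap. Over all genes tested this held for 7.06% with CicKO above, 8.36% with CicKO below and 15.4% in either direction. Because the comparison had a part in choosing these genes, nothing is read from this count.

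Pafah1b2, the α2 catalytic subunit and partner of α1, had overlapping levels. They were 240, 248, 229 and 253 CPM in CicKO 1 to 4 and 253, 251 and 262 CPM in Wildtype 1 to 3. CicKO 3 was the lowest library and Wildtype 3 the highest. The means were 243 ± 10.5 and 255 ± 6.05 CPM (log2 fold change -0.07, SE 0.0498), a difference of about the size of the spread within the CicKO group.

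Pafah1b1, which encodes LIS1, had nearly equal group means. Levels were 604, 597, 556 and 597 CPM in CicKO 1 to 4 and 567, 593 and 616 CPM in Wildtype 1 to 3. The lowest library of all was CicKO 3, and the other 3 CicKO libraries fell within the Wildtype range. The means were 589 ± 21.6 and 592 ± 24.5 CPM (log2 fold change -0.01, SE 0.0583). Without CicKO 3 and Wildtype 3 the libraries were at 597 to 604 and 567 to 593 CPM, which no longer overlapped, and the log2 fold change was 0.05 (SE 0.0525), so no direction is given for Pafah1b1. Its libraries varied little: the coefficient of variation was 3.68% in CicKO and 4.14% in Wildtype, against medians of 7.66% and 8.11% over all genes tested.

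Pafah2 was the least abundant member and the most variable between libraries of a group. Levels were 5.69, 5.40, 8.79 and 6.10 CPM in CicKO 1 to 4 and 5.96, 4.77 and 7.44 CPM in Wildtype 1 to 3. The highest libraries were CicKO 3 and Wildtype 3, the same libraries that stood apart in choroid plexus markers, and the other 5 lay between 4.77 and 6.10 CPM. Coefficients of variation were 24.0% and 22.1%. Group means were 6.50 ± 1.56 and 6.06 ± 1.34 CPM (log2 fold change 0.10, SE 0.207). The sign turned when CicKO 3 (-0.08) or Wildtype 2 (-0.04) was left out, so no direction is given for Pafah2.

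Between genes, levels were compared per kilobase of the union of annotated exons, since longer transcripts give more reads. Pafah1b1 was highest at 61.2 ± 2.25 CPM per kb in CicKO and 61.5 ± 2.54 in Wildtype. Pafah1b2 followed at 29.4 ± 1.27 and 30.9 ± 0.732, Pafah1b3 at 14.2 ± 0.868 and 7.15 ± 0.810, and Pafah2 came last at 1.80 ± 0.431 and 1.68 ± 0.370 CPM per kb. The ranges of these 4 genes over all libraries did not overlap on this scale. Annotated exons of Pafah1b3 include retained introns, so the order was also taken per kilobase of the longest coding transcript (901 bases for Pafah1b3 and 6873 for Pafah1b2). On that scale Pafah1b3 was at 33.3 ± 2.03 CPM per kb in CicKO, close to Pafah1b2 at 35.3 ± 1.53 but below it in each of the 4 libraries, while in Wildtype the levels were 16.7 ± 1.89 and 37.2 ± 0.880 CPM per kb.

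The balance of the catalytic subunits at the mRNA level followed Pafah1b3. The ratio of Pafah1b3 to Pafah1b2 per kilobase of exon union was 0.456, 0.475, 0.508 and 0.501 in CicKO 1 to 4 and 0.226, 0.214 and 0.254 in Wildtype 1 to 3. With the longest coding transcripts it was 0.887 to 0.988 in CicKO and 0.415 to 0.493 in Wildtype. The groups did not overlap on either scale, and the absolute ratio depends on which transcripts are present, which gene counts do not show. Since Pafah1b3 is the numerator of this ratio, it restates the gene's difference and is no separate evidence of it.

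**Figure D2:**
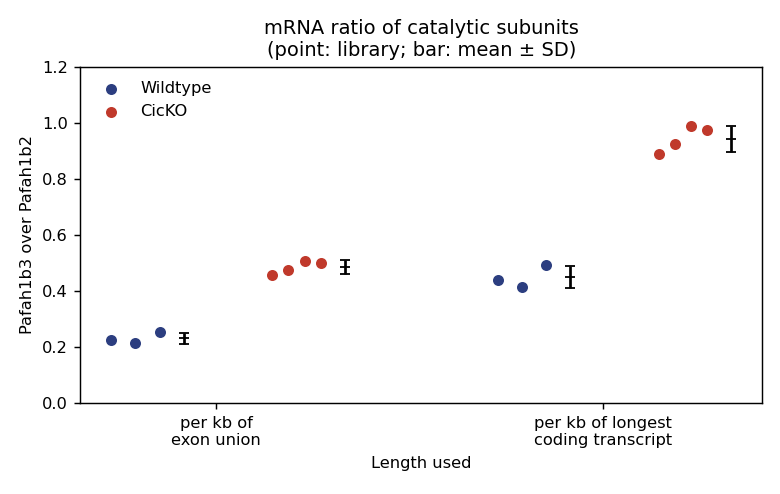
Ratio of Pafah1b3 to Pafah1b2 CPM per kilobase in each library, with both ways of taking transcript length on the x axis. Blue points are Wildtype and red points CicKO libraries, with mean ± SD beside them. The ratio lies at 0.214 to 0.254 in Wildtype and 0.456 to 0.508 in CicKO per kb of exon union, and at 0.415 to 0.493 and 0.887 to 0.988 per kb of longest coding transcript.

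The position of Pafah1b3 beside Cic raises the question of whether other genes there moved too. The 10 protein-coding genes on each side of Cic were listed by position. Apart from Pafah1b3 these were 19 genes, of which 15 were tested. Gm4881 had no row under that symbol and Prr19, Cxcl17 and Erich4 had too few counts. In edgeR 0 of the 15 were called (adjusted p below 0.05) in either direction, where 2.08% of all genes were. At an unadjusted p below 0.05 there were 3 (Tmem145 and Lipe higher, Rabac1 lower), DESeq2 called 1 (Tmem145, higher) and limma-voom 0. Over all genes tested 2741 (16.2%) had such a p, and DESeq2 called 680 higher and 507 lower, so these counts are near the background. Their log2 fold changes ran from -0.17 (Rabac1) to 0.68 (Ceacam2, SE 0.758) with a median of 0.06, beside a median of 0.00 over all genes tested.

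On the side of Cic's 5′ end the nearest gene was Erf, which encodes an ETS-family repressor, 16942 bases away. It was at 11.2 ± 0.775 CPM in CicKO and 11.5 ± 1.29 CPM in Wildtype (log2 fold change -0.04, SE 0.0988, edgeR adjusted p = 0.869). Beyond it, Gsk3a, a glycogen synthase kinase, had -0.04 (SE 0.0492), Zfp526, a zinc finger gene, -0.04 (SE 0.115) and Dedd2, a death-effector domain gene, -0.05 (SE 0.0929). The groups overlapped for all 4 of these genes.

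Past Pafah1b3, the next tested gene was Tmem145, a transmembrane protein gene 11946 bases from Cic. It was at 196, 196, 188 and 213 CPM in CicKO 1 to 4 and 159, 186 and 149 CPM in Wildtype 1 to 3. The groups did not overlap, but CicKO 3 at 188 CPM and Wildtype 2 at 186 CPM lay close together. Its log2 fold change of 0.27 (SE 0.0800) was not called in edgeR (adjusted p = 0.144), and was called by DESeq2 (adjusted p = 0.0234) and in edgeR without Wildtype 2 (0.0324). Its smallest adjusted p among the alternatives was 0.0234 and its largest 0.769. Further on, Cnfn was at 0.252 ± 0.0467 and 0.241 ± 0.104 CPM. Pafah1b3 was thus the gene with the largest log2 fold change among the tested genes of this stretch, and its difference from each neighbour was not tested.

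**Figure D3:**
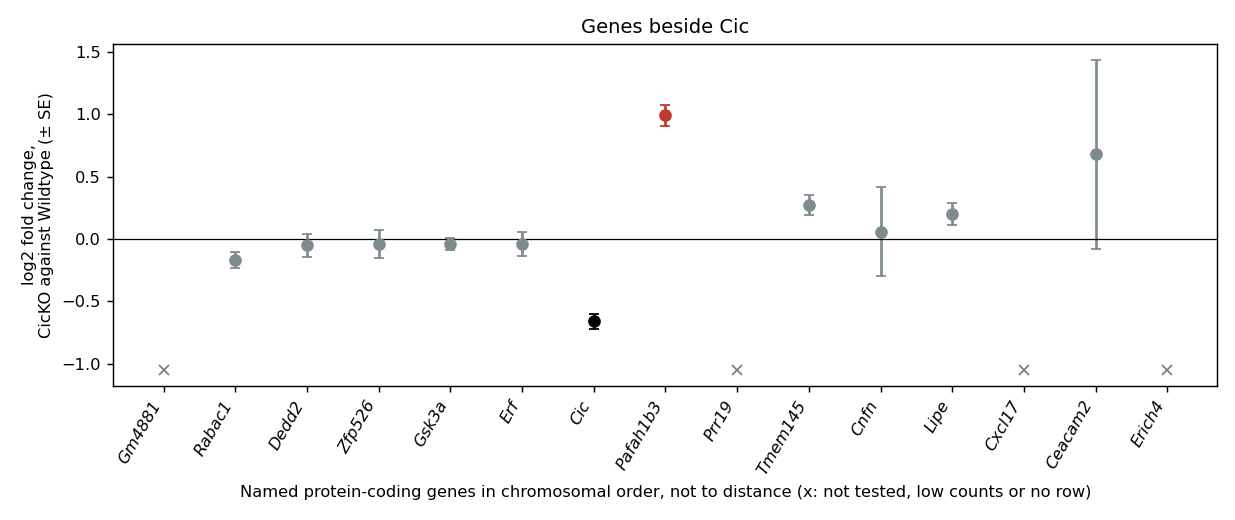
Log2 fold change of CicKO against Wildtype (points, ± SE) for Cic (black), Pafah1b3 (red) and other protein-coding genes beside Cic (grey). Grey genes are those named in the paragraphs on this stretch. Genes are in chromosomal order and not to distance, and crosses at the bottom mark genes that were not tested. Cic is at -0.66 and Pafah1b3 at 0.99, and the other tested genes shown lie between -0.17 and 0.68, where Ceacam2 at 0.68 has an SE of 0.758.

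CIC, the protein made by Cic, is a repressor that binds octamers of the form TGAATGAA, TGAATGGA, TCAATGAA and TCAATGGA. RefSeq promoter windows on GRCm38.p6, from 250 bases before a transcription start to 50 after it, were found for 3 of the 4 members: 1 for Pafah1b1, 4 for Pafah1b2 and 4 for Pafah2. No window was found for Pafah1b3, so its promoter was not searched. In the windows found, both strands were searched for the 4 octamers. A match occurred in 1 window, at an internal start of Pafah1b2, on the reverse strand at chr9:45985345-45985644. It is shown because it is the only match among these windows, with the octamer TGAATGAA in capitals; its first base lies 93 bases before the start:
Pafah1b2 internal start: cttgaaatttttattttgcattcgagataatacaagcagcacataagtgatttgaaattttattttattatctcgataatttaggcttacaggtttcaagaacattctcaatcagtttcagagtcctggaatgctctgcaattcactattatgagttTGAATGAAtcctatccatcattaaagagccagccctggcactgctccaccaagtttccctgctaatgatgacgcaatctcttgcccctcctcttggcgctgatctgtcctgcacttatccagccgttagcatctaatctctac
Among all 32851 windows, 1.30% held TGAATGAA and 3.84% held any of the 4 octamers on either strand. The windows of Pafah1b1 and Pafah2 held none of the 4 octamers. Pafah1b2, the gene with the match, had a log2 fold change of -0.07, and the match is a description of sequence only.

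Genes that act beside these subunits were described from 3 lists of known pathway members, drawn up while earlier results of these data were known, so their counts are not independent of those results. Of 21 listed symbols of platelet-activating factor and ether lipid metabolism, 20 were tested, and Selenoi had no row under that symbol. Of the 20, 0 were called higher and 1 lower in edgeR (5.0%, where 0.828% of all genes were called lower). The median log2 fold change was 0.00, beside 0.00 over all genes. The called gene was Pla2g7, which encodes the secreted platelet-activating factor acetylhydrolase, the enzyme of the same reaction outside cells. It was at 304, 306, 290 and 289 CPM in CicKO 1 to 4 and 369, 375 and 401 CPM in Wildtype 1 to 3. All CicKO libraries lay below all Wildtype libraries. Pla2g7 fell by 0.36 on the log2 scale (SE 0.0520, edgeR adjusted p = 0.0148), and the call was lost without CicKO 1 (adjusted p = 0.0546), CicKO 4 (0.0658), Wildtype 1 (0.0526) or Wildtype 3 (0.0677) and with the share of reads in no gene as a covariate (0.171). In those 5 fits the log2 fold change was -0.38 to -0.32, so the size of the difference changed little, and the smallest adjusted p of any alternative was 3.97e-09, by DESeq2. The Bergmann glia markers Gdf10 and Slc1a3 were also lower in every CicKO library than in any Wildtype library, at the levels given above, and their part in this difference was not tested. The most abundant others per kilobase were Lpcat4, a lysophospholipid acyltransferase, and Gnpat, which starts ether lipid synthesis, at log2 fold changes of 0.08 (SE 0.109) and 0.02 (SE 0.0436), neither called. DESeq2 also called Agmo, the enzyme that cleaves ether lipids, which edgeR did not call and which is named after its values were seen (log2 fold change -0.40).

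Of 26 partners of LIS1 among dynein, dynactin and their regulators, all were tested and 0 were called in either direction by edgeR. At an unadjusted p below 0.05 there were 3 (11.5%, beside 16.2% of all genes tested). DESeq2 called 1 (Dynll1, lower), where it called 507 of all genes lower, and limma-voom called 0. Log2 fold changes ran from -0.34 to 0.10 with a median of -0.04, and 18 of the 26 were negative, beside 8659 of all 16905. Within 0.15 of 0 were 25 of the 26 (96.2%), beside 62.7% of all genes tested. These shares are not of genes of like level. The lowest value of any of the 26 was 26.1 CPM (Nde1), while all genes tested include scarce ones with large SE, such as Cnfn (SE 0.359). The 3 most abundant per kilobase were Dynll2, Dynlrb1 and Ywhae. The dynein light chain gene Dynll2 had -0.07 (SE 0.0606) and the roadblock light chain gene Dynlrb1 -0.12 (SE 0.0533). Ywhae, the 14-3-3 epsilon gene, lies on the same chromosome as Pafah1b1 and had -0.10 (SE 0.0613). Dynll1, another light chain gene, was named after its values were seen. It was at 67.8, 83.8, 77.2 and 82.4 CPM in CicKO 1 to 4 and 100, 92.8 and 102 CPM in Wildtype 1 to 3, without overlap (log2 fold change -0.34, SE 0.0756, edgeR adjusted p = 0.0660, DESeq2 adjusted p = 0.00293). Its largest adjusted p among the alternatives was 0.481.

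Reelin is the extracellular signal that guides migrating neurons, and mutations of its pathway genes and of Pafah1b1 disturb cortical layering. Of 20 genes of the Reelin pathway and of lissencephaly, 19 were tested, and 1 was called higher and 0 lower (5.26%, where 1.25% of all genes were called higher). The median log2 fold change was 0.04. The called gene was Lrp8, which encodes the Reelin receptor ApoER2. It was at 222, 216, 218 and 219 CPM in CicKO 1 to 4 and 128, 147 and 136 CPM in Wildtype 1 to 3. The groups stood far apart beside their spread: Lrp8 rose 1.6-fold (log2 fold change 0.68, SE 0.0535, edgeR adjusted p = 0.00135). Its call held under all 15 alternatives, with adjusted p from 1.21e-28 to 0.0230.

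Other genes of that list gave smaller or less certain differences. Dcx, the microtubule protein doublecortin of migrating neurons, was named after its values were seen. It was at 10.2, 10.2, 13.9 and 10.5 CPM in CicKO 1 to 4 and 8.05, 6.61 and 8.60 CPM in Wildtype 1 to 3, with CicKO 3 the highest. Its log2 fold change of 0.53 (SE 0.143) was not called (edgeR adjusted p = 0.110), but was with the replicate block (0.0319), in which CicKO 4 has no partner and adds nothing to the contrast, and by DESeq2 (0.0071). Its largest adjusted p was 0.386, with the share of reads in no gene as a covariate. The most abundant genes per kilobase, the tubulin genes Tuba1a (-0.09, SE 0.0541) and Tubb2b (0.24, SE 0.112) and the kinase gene Cdk5 (-0.03, SE 0.0462), were not called. Without CicKO 3, Cdk5r2, Dab1 and Tubb2b passed beside Lrp8, which made 4 of the list higher. In that fit 493 of all genes were called higher, beside 212 with all libraries. Tubulin genes belong to a family of similar sequences that can share reads.

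**Figure D4:**
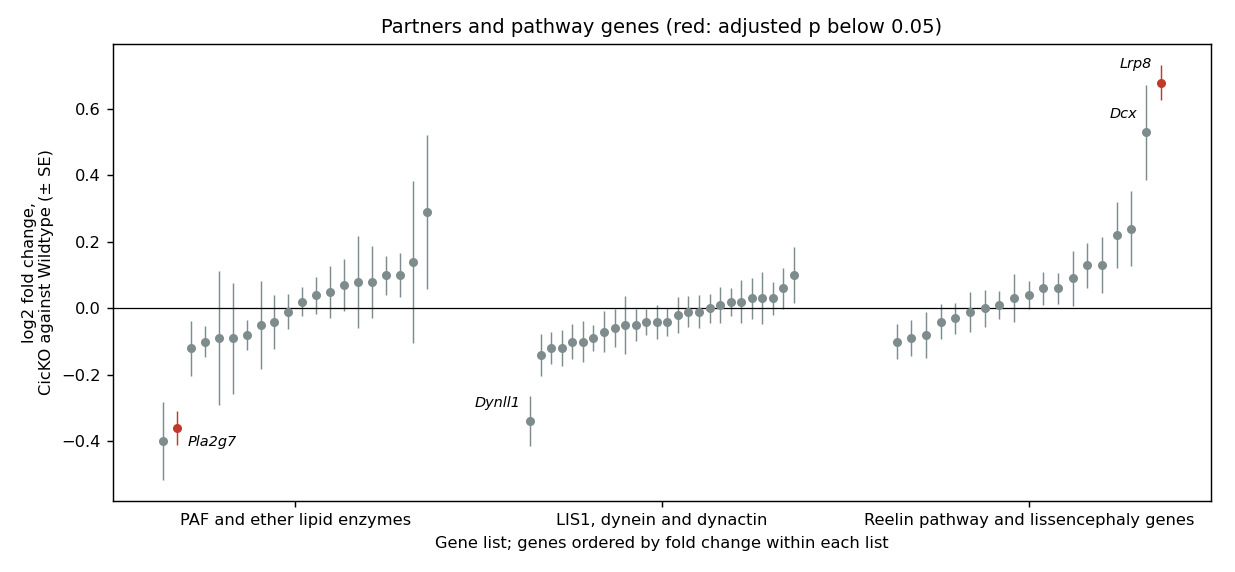
Log2 fold change of CicKO against Wildtype (points, ± SE) for the tested genes of the 3 lists, ordered by value within each list. Red points passed an edgeR adjusted p of 0.05: Pla2g7 at -0.36 and Lrp8 at 0.68. Dynll1 at -0.34 and Dcx at 0.53 are labelled but did not pass, and 25 of the 26 dynein and dynactin genes lie within 0.15 of 0.

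The genes most like each member were found by the Pearson correlation of log2 CPM over the 7 libraries, among the 11719 genes that averaged 5 CPM or more. The libraries share their group structure and choroid plexus content, so these values describe pattern only. Pafah1b3 was most like Hsd17b12 (r = 0.995), a gene of long-chain fatty acid elongation, then AI464131 (0.992) and Dpf1 (0.990), a neuronal chromatin-remodelling gene. After the group means were removed these were 0.895, 0.830 and 0.963. Their log2 fold changes were 0.71, 0.28 and 0.29. Pafah1b1 was most like B230219D22Rik (0.960), Luzp2 (0.953) and Rrp9 (0.951), and Pafah1b2 most like Ppp2ca (0.989), Bbip1 (0.987) and Abi1 (0.987). Pafah2 was most like Col4a6 (0.987) and Dnajc3 (0.984). No gene was among the nearest 3 of more than 1 member.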

How the data were processed

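Counts per gene symbol were deposited by the authors, 1 file per library, with no normalization. The tools named by the submitters' processing notes are STAR (2.5.3a), HTSeq and DESeq2, and the genome build is mm10. Annotation, strand setting and read filters: not given in the sources used here. HTSeq summary rows stayed out of library sizes and tests: no feature 16.0% to 19.0% of entries, ambiguous 1.27% to 1.37%, not unique 12.0% to 13.7%. By the floor of 3 counts, 0 counts would allow 0.0245 to 0.0295 CPM, for counting error only.

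Genes were filtered with filterByExpr and scaled by TMM in edgeR 4.0.16 (R 4.3.3), then tested by robust quasi-likelihood with genotype as the only term, Benjamini-Hochberg adjusted over 16905 genes, called below 0.05. SE is the log2 fold change over the square root of F. DESeq2 1.42.0 and limma 3.58.1 (voom) were alternatives. The difference between any pair within a group was 18.5 to 157 times sampling variance, so no library was treated as a repeat.

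The members and lists were chosen with earlier results of these data known. Named genes are Cic, the members, the tested genes nearest Cic, called genes of each list with the 3 most abundant per kilobase, and the 3 most alike per member; some genes that these rules name are not reported here. Coordinates are GENCODE M21 on GRCm38 (mm10), and promoter windows are from RefSeq.

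Replicate numbers 1 to 3 occur in both groups. Deviations from group means of same-numbered libraries correlated at 0.145, 0.288 and 0.713, all above the limit of 0.1 that counts as pairing, though CicKO 1 with Wildtype 2 (0.319) and CicKO 4 with Wildtype 2 (0.297) did too. The main test leaves the numbers out.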

Additional observations from a re-analysis of the deposited data

Results flagged for a closer look

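In 25 genes, the 4 CicKO libraries were searched for 1 library far from the rest, and 4 were found where chance gives about 1 in 20. Pafah1b1 was at 556 CPM in CicKO 3 and at 597 to 604 CPM in the others. Gsk3a was at 84.8 CPM in CicKO 3 against 91.9 to 93.1 CPM. Dcx was at 13.9 CPM in CicKO 3 against 10.2 to 10.5 CPM. Dedd2 was at 15.1 CPM in CicKO 4 against 18.7 to 19.0 CPM. CicKO 3, the library of 3 of these values, is the one with the highest sum of choroid plexus markers (8610 CPM), whose part in them was not tested.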

How the results depend on the processing

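Under all 15 alternatives the log2 fold change of Pafah1b3 stayed between 0.93 and 1.09, and that of Cic between -0.80 and -0.58. It ran from -0.03 to 0.05 for Pafah1b1, -0.09 to -0.03 for Pafah1b2 and -0.08 to 0.28 for Pafah2. The members were chosen with their values known and the alternatives refit the same libraries, so the members' ranges are a description only. Over single omitted libraries the ranges were 0.93 to 1.09 for Pafah1b3, -0.71 to -0.58 for Cic, -0.03 to 0.02 for Pafah1b1, -0.09 to -0.05 for Pafah1b2 and -0.08 to 0.28 for Pafah2. The share of all genes called moved much more. Beside 212 higher and 140 lower, DESeq2 called 680 and 507, and the share of reads in no gene as a covariate left 46 and 12. That share ran partly with genotype, so calls lost in this fit are not read as a lack of difference. Leaving out CicKO 1, 2, 3 or 4 gave 65, 99, 493 or 79 higher genes with 21, 57, 349 or 28 lower ones, and leaving out Wildtype 1, 2 or 3 gave 77, 371 or 78 with 25, 205 or 24; the cause was not tested. Genes beside Cic called higher numbered 1 (Tmem145) with DESeq2 or without Wildtype 2, and 0 to 1 over single omissions. Of the ether lipid list, 2 were lower with DESeq2 (Pla2g7 and Agmo), 0 with the covariate, and 0 to 1 over single omissions, with 0 without CicKO 1, CicKO 4, Wildtype 1 or Wildtype 3. Of the dynein list 1 was lower with DESeq2 (Dynll1). Of the Reelin list 2 were higher with DESeq2 and 2 with the replicate block (Lrp8 and Dcx), and 1 to 4 over single omissions, with 4 without CicKO 3. The replicate block was fitted to all genes and called 310 higher and 204 lower. Among Cic, the other genes beside it and the listed pathway genes, it changed no other call than that of Dcx. That comparison leaves out the most alike genes.

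Signs turned, without a call, for these genes: with the replicate block Dedd2 (0.02), Zfp526 (0.03) and Erf (0.00); without CicKO 4 Dedd2 (0.02), Zfp526 (0.02) and Cnfn (-0.04); without Wildtype 2 Zfp526 (0.01), Erf (0.01) and Cnfn (-0.25); without Wildtype 3 Lpcat4 (-0.01) and Gnpat (-0.02); without both libraries numbered 3 Gnpat (-0.01); and with the covariate Pou2f2 (-0.26, beside 0.19 without it and 0.03 to 0.48 over single omissions), Gnpat (-0.03) and Dynll2 (0.01). Over single omissions the others ran from -0.10 to 0.02 for Dedd2, -0.12 to 0.02 for Zfp526, -0.13 to 0.01 for Erf, -0.25 to 0.30 for Cnfn, and -0.01 to 0.16 for Lpcat4. Depth did not limit the members, whose lowest level was 4.77 CPM, and Cnfn at about 0.25 CPM rests on few counts.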
